A study of Mus musculus with 22 samples.

Results

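The genes of this report are 35 genes of the smooth muscle contractile apparatus: the actins, myosin and tropomyosins of its filaments, the proteins that bind and regulate them, the calcium handling proteins, and the filaments and plaques that carry the force to the membrane. The rule names them by function and uses no expression value, though the list was made with earlier results of these data known, and each gene was read from the probe set of that gene with the largest interquartile range over the arrays. All 35 had a probe set annotated to a single gene, out of 18194 such genes on the arrays, and 34 of them passed the variance filter that left 9097 genes for testing. The exception was Sgca, a dystrophin-associated membrane protein of muscle, whose signal stayed between 2.29 and 2.60 on every array, where probe sets with little or no transcript lie.

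Colonic tissue was measured on 22 Affymetrix mouse arrays from mice given 2.5% dextran sodium sulfate (DSS), which injures the colonic epithelium, in the drinking water. VC+ mice (PPAR γ fl/fl; Villin Cre+) delete PPAR γ through a Cre recombinase that the Villin promoter drives in intestinal epithelial cells, so that smooth muscle is not the target of the deletion, and were sampled at day 0 without DSS (n = 3), day 2 (n = 5) and day 7 (n = 4). VC- mice (PPAR γ fl/fl; Villin Cre-), which the labels also call WT, carry the same floxed allele without the recombinase and were sampled at day 0 (n = 3), day 2 (n = 3) and day 7 (n = 4). The study used mice of a mixed FVB/C57BL/6 and of a C57BL/6 background, the labels give neither the strain nor the age per array, and they do not say that each array is a separate mouse, so that p-values measure the spread between these samples, which may be technical. The comparisons ask how smooth muscle transcripts of the tissue differed over the days of DSS in each genotype and between the genotypes at each day.

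Smooth muscle of the colon forms the thin muscularis mucosae under the epithelium and the circular and longitudinal layers of the outer wall. Calcium entering the cell binds calmodulin and turns on myosin light chain kinase, the phosphorylated myosin pulls on actin filaments, and myosin phosphatase ends the contraction. Smooth muscle cells can also shift from this contractile state toward a synthetic one, in which they divide and secrete matrix, and serum response factor with its partner myocardin maintains many of the contractile genes.

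The labels call the tissue colonic mucosa, while the methods describe homogenized colonic tissue, and smooth muscle transcripts were present on every array. Log2 signals lay between 11.50 and 14.49 for Actg2, between 10.91 and 13.51 for Myh11, between 9.19 and 11.75 for Des, and between 12.13 and 14.14 for Tagln, and a level is not compared here between probe sets of different genes. Of 10 markers of skeletal and heart muscle, the skeletal myosins Myh1, Myh2 and Myh4 reached at most 2.99, 2.11 and 3.23, and signal was seen for Acta1, Actc1 and Ckm. The arrays also differed in the genes that follow, in part within groups and in part along with the groups. Hoxb13, a homeobox gene that marks the distal end of the gut, had a log2 signal of 12.42, 3.09 and 2.88 on the VC+ arrays of day 0, 12.42, 3.07, 9.45, 10.44 and 11.19 at day 2 and 3.10, 3.31, 3.07 and 6.88 at day 7, and of 7.29, 9.13 and 9.67, 3.08, 2.95 and 2.88 and 3.81, 2.86, 3.03 and 9.62 on the VC- arrays of days 0, 2 and 7. Prss2, a trypsinogen of the pancreas, was above 8 on VC+ day 7 replicate 4, VC- day 0 replicate 3 and VC- day 7 replicate 2, and Xist, which females transcribe from 1 silenced X chromosome, was above 8 on 6 of the day 0 and day 2 arrays and on no day 7 array. The targeted gene Pparg had 8.62, 8.50 and 8.83 on the VC+ arrays of day 0, 6.91, 9.54, 8.27, 6.87 and 6.96 at day 2 and 10.35, 10.08, 8.54 and 6.26 at day 7, against 9.63, 9.58 and 9.61, 9.87, 10.25 and 10.96 and 9.82, 7.39, 8.38 and 8.57 on the VC- arrays of days 0, 2 and 7. VC+ day 2 replicate 2 and VC+ day 7 replicates 1 and 2 were thus above 9, as were 7 of the 10 VC- arrays, while VC- day 7 replicates 2, 3 and 4 lay below 9, and which exons the probe set reads is not given in the sources used here. VC+ and VC- below are the genotypes as labelled, where the array titles read VC for VC+ and WT for VC-.

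The promoters are shown because serum response factor acts on many genes of this kind through the CArG box, and members that move together can be set beside the letters of their promoters. Of the 35 genes, 31 had an entry among the RefSeq promoters (GRCm38.p6, 250 bases before to 50 bases after a start); Actg2, Myh11, Nexn and Tagln are named only. A script looked for the CArG box, which reads as the same motif on both strands, and searched for no other motif. The pattern was CC, then 6 bases that are each A or T, then GG, with no mismatch allowed. Boxes that differ from it or lie outside these bases were not looked for, so a gene without a match may still have one. It was found in 6 of 39 promoters of the members (15.4%) and in 535 of all 32851 promoters (1.63%), and, counted by gene, in 5 of 31 members (16.1%) and 488 of 27025 genes (1.81%). The 5 members were Dmd, Fhl1, Ldb3, Myl9 and Vcl. The promoters of 4 of them follow, 5′ to 3′, with the CArG box in capitals. Dmd and Fhl1 each had 2 promoters among those searched, and the box was found in only 1 of the 2, which is shown. The box lies 161 bases before the start in Myl9, 102 in Fhl1, 98 in Dmd and 227 in Vcl. A match is a description of the letters and not a bound site.
Myl9 (chr2:156775214-156775513, + strand): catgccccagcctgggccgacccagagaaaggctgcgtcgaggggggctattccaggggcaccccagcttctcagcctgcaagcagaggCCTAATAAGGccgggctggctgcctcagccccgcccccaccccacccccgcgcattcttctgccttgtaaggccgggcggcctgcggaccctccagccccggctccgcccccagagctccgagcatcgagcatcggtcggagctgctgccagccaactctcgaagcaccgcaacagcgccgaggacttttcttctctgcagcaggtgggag
Fhl1 (chrX:56779433-56779732, + strand): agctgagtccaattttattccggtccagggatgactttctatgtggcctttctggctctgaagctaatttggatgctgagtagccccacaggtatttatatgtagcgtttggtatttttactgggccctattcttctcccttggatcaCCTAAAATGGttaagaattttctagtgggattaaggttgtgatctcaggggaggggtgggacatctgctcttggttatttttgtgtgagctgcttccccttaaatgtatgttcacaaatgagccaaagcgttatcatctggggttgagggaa
Dmd (chrX:82948620-82948919, + strand): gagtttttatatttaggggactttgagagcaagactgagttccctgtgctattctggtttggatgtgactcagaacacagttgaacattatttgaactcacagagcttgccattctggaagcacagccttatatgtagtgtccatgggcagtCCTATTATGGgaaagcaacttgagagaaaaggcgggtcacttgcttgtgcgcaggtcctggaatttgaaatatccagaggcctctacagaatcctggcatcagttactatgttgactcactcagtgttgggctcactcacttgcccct
Vcl (chr14:20929148-20929447, + strand): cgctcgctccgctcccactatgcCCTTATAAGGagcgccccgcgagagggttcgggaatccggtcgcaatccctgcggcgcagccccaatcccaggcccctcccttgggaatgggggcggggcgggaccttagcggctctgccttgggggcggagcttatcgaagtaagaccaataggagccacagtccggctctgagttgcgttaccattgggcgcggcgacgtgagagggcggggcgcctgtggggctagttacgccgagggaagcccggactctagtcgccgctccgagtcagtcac
The first 3 belong to genes that fell at day 7 against day 2 in VC+ mice, below, and Vcl to one that did not pass that test. Ldb3, with the box 109 and 35 bases before the starts of its 2 promoters, did not pass it either (log2 fold change 0.42), so that 3 of the 5 genes with a box fell, beside 21 of all 34.

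**Figure D1:**
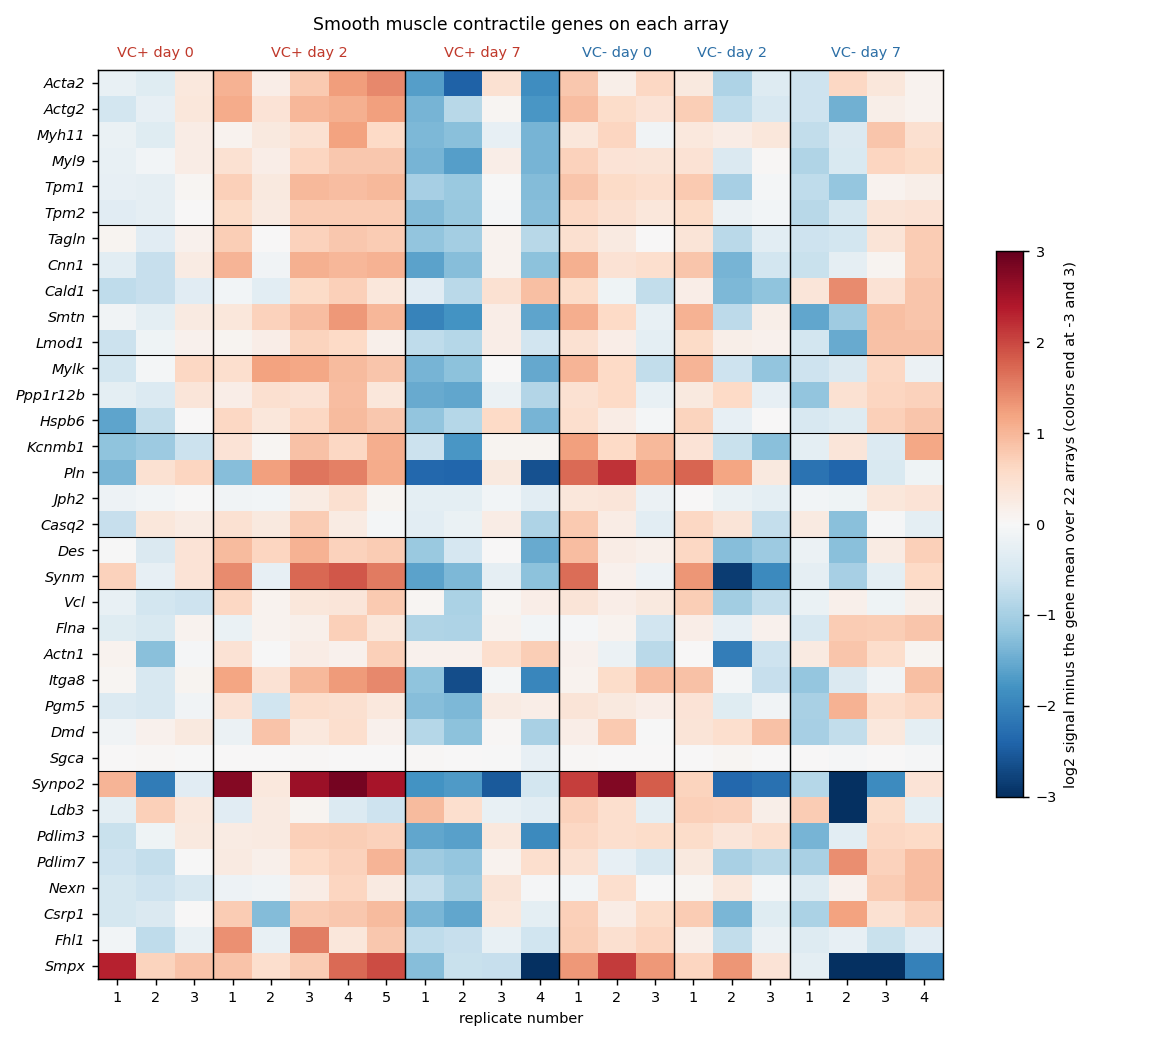
Log2 signal of the 35 genes (rows, ordered by role, lines between roles) on each of 22 arrays (columns, by group and replicate number), relative to the mean of the gene over all arrays. VC+ day 7 replicates 1, 2 and 4 are low for most rows and replicate 3 is not, and 20 of the 35 genes have their highest value on a VC+ array of day 2.

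The smooth muscle genes were highest in VC+ mice at day 2 and lowest in VC+ mice at day 7, and arrays of 1 group could lie far apart. The mean of the 35 genes on each array, relative to each gene's mean over all 22 arrays (log2), was -0.26, -0.36 and 0.11 on the VC+ arrays of day 0, 0.50, 0.19, 0.77, 0.84 and 0.77 at day 2 and -1.03, -1.12, 0.02 and -0.92 at day 7. On the VC- arrays it was 0.69, 0.51 and 0.18 at day 0, 0.55, -0.48 and -0.36 at day 2 and -0.59, -0.55, 0.16 and 0.37 at day 7. Every VC+ array of day 2 was thus above every VC+ array of days 0 and 7, and the VC- groups of days 2 and 7 each held arrays on both sides of 0. The lowest value of a gene was on a VC+ array of day 7 for 24 of the 35 genes, 11 of them on replicate 2, 9 on replicate 4, 4 on replicate 1 and none on replicate 3. The highest value was on a VC+ array of day 2 for 20 genes and on a VC- array of day 7 for 8. These genes were measured in bulk tissue, in which fewer smooth muscle cells and less RNA per smooth muscle cell cannot be told apart.

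At day 7 against day 2 in VC+ mice 21 of 34 genes fell and none rose (limma, adjusted p under 0.05 over all genes tested), where 2.83% of all 9097 genes fell, 4.76% rose and 7.58% were called in either direction. The log2 fold change was below 0 for 33 of the 35 genes, with a median of -1.38, against 0.01 over all 18194 genes. The highest day 7 array was below the lowest day 2 array for 13 genes, as for 6.28% of all genes tested. The falls covered all 6 filament genes, 3 of 5 actin-binding regulators, all 3 genes of the contraction switch, 1 of 4 calcium handling genes, both intermediate filament genes, 2 of 6 tested genes of the dense plaque and membrane, and 4 of 8 genes of the Z-disc-like bodies and LIM proteins. In VC- mice the same days gave a median of -0.05, with Cald1 higher and Smpx lower (5.61% of all genes called in either direction). Whether the change from day 2 to day 7 differed between the genotypes was not tested. Calls in VC+ mice without calls in VC- mice do not show such a difference.

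**Figure D2:**
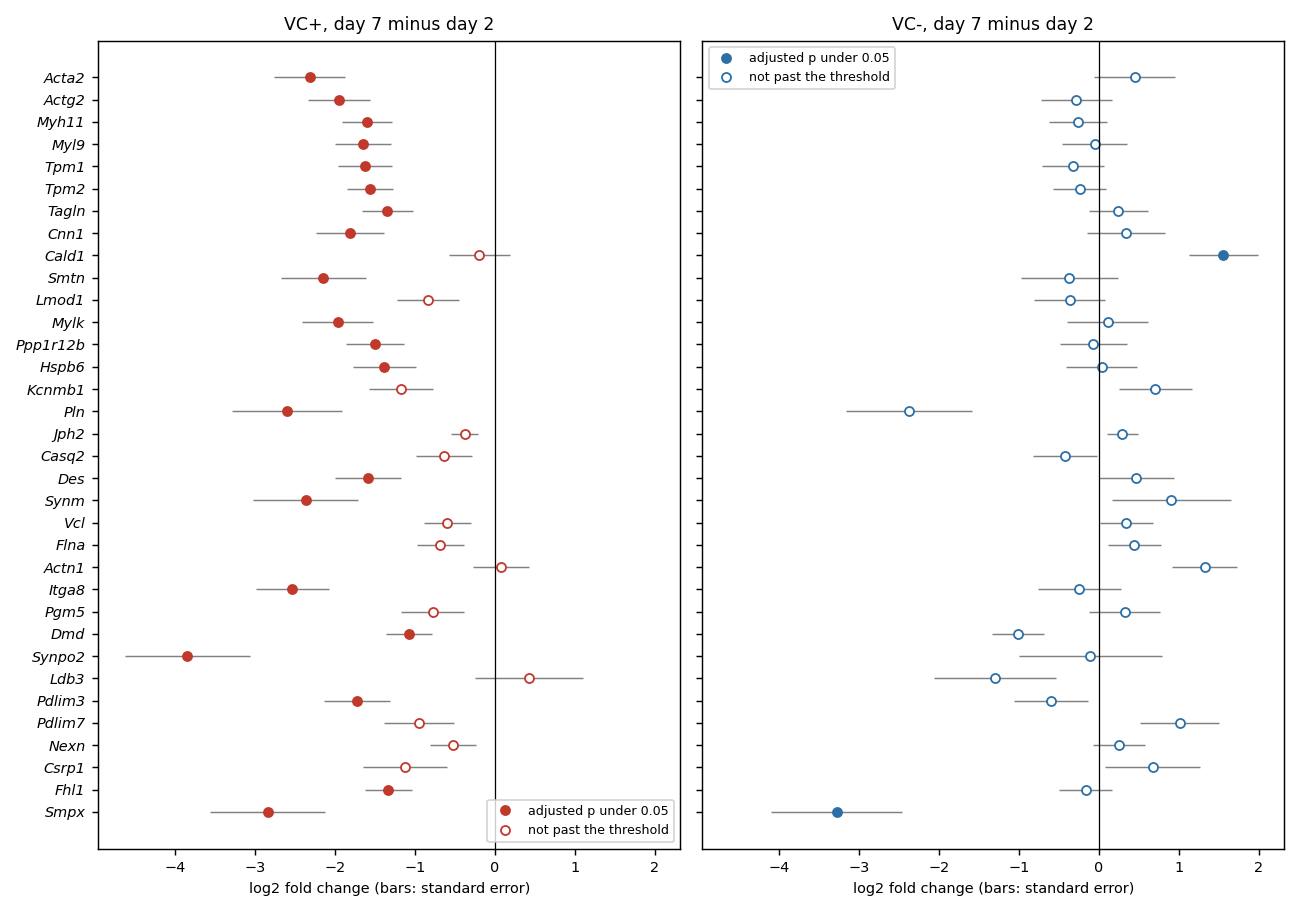
Log2 fold change of the 34 tested genes between day 7 and day 2 in VC+ mice (left) and VC- mice (right), with bars for the standard error and filled points for adjusted p under 0.05 over all genes tested. In VC+ mice 21 genes lie below 0 with filled points, and in VC- mice Cald1 (1.55) and Smpx (-3.28) are filled.

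Among the filament genes, Acta2, the actin of smooth muscle that blood vessels also use, had log2 signals of 5.67, 4.91, 7.79 and 5.47 on the VC+ day 7 arrays, against 8.38, 7.53, 8.11, 8.59 and 8.76 on those of VC+ day 2 (log2 fold change -2.31, standard error 0.44, adjusted p = 0.00656). Replicates 1, 2 and 4 of day 7 lay below every day 2 array, and replicate 3 lay among the day 2 arrays. Actg2, the enteric smooth muscle actin, had 11.86, 12.42, 13.31 and 11.50 on the VC+ day 7 arrays, against 14.36, 13.67, 14.26, 14.32 and 14.49 on those of VC+ day 2 (log2 fold change -1.95, standard error 0.39, adjusted p = 0.00813). Myh11, the smooth muscle myosin heavy chain and the most specific marker of the lineage, had 10.95, 11.04, 12.05 and 10.91 on the VC+ day 7 arrays, against 12.41, 12.60, 12.77, 13.51 and 12.90 on those of VC+ day 2 (log2 fold change -1.60, standard error 0.32, adjusted p = 0.00773). Neither Actg2 nor Myh11 overlapped between the days, and in both the day 7 value nearest to day 2 was replicate 3. Myl9, the light chain that myosin light chain kinase phosphorylates, had 11.79, 11.53, 13.38 and 11.79 on the VC+ day 7 arrays, against 13.65, 13.40, 13.82, 13.99 and 14.01 on those of VC+ day 2 (log2 fold change -1.65, standard error 0.35, adjusted p = 0.0106). The tropomyosin Tpm1 had 10.87, 10.76, 11.84 and 10.55 on the VC+ day 7 arrays, against 12.58, 12.14, 12.82, 12.79 and 12.82 on those of VC+ day 2 (log2 fold change -1.63, standard error 0.34, adjusted p = 0.00931). Its partner Tpm2, which lies along the same actin filaments, had 12.88, 13.03, 14.14 and 12.90 on the VC+ day 7 arrays, against 14.74, 14.43, 14.94, 14.94 and 14.94 on those of VC+ day 2 (log2 fold change -1.56, standard error 0.29, adjusted p = 0.00469). None of these 3 genes overlapped between the days either. In VC- mice the 6 filament genes had log2 fold changes between the same days of -0.32 (Tpm1) to 0.45 (Acta2), none past the threshold.

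The actin-binding regulators split into 3 genes that fell and 2 that did not pass the test in VC+ mice. Tagln, or SM22, an early and abundant marker of smooth muscle, had 12.13, 12.30, 13.42 and 12.49 on the VC+ day 7 arrays, against 14.06, 13.34, 14.02, 14.14 and 14.08 on those of VC+ day 2 (log2 fold change -1.34, standard error 0.32, adjusted p = 0.0191). Cnn1, calponin, which damps the myosin motor, had 10.78, 11.11, 12.49 and 11.16 on the VC+ day 7 arrays, against 13.41, 12.30, 13.47, 13.39 and 13.43 on those of VC+ day 2 (log2 fold change -1.81, standard error 0.42, adjusted p = 0.0178). Both overlapped, since day 7 replicate 3 lay above day 2 replicate 2. Smtn, smoothelin, a marker of contractile smooth muscle, had 6.84, 7.06, 9.05 and 7.26 on the VC+ day 7 arrays, against 9.17, 9.53, 9.77, 10.15 and 9.84 on those of VC+ day 2 (log2 fold change -2.14, standard error 0.53, adjusted p = 0.0219), with no overlap. Lmod1, leiomodin, which starts actin filaments, had a log2 fold change of -0.84 (adjusted p = 0.203). Cald1, caldesmon, which non-muscle cells also make, did not pass the test, with 12.22, 11.75, 13.02 and 13.45 on the VC+ day 7 arrays, against 12.47, 12.23, 13.14, 13.27 and 12.89 on those of VC+ day 2 (log2 fold change -0.19, standard error 0.38, adjusted p = 0.818). Its day 7 value on replicate 4, where Actg2 and Myh11 were lowest, was the highest of all VC+ arrays.

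The 3 genes that switch contraction on and off all fell in VC+ mice. Mylk, myosin light chain kinase, had 5.76, 5.93, 7.18 and 5.63 on the VC+ day 7 arrays, against 7.66, 8.37, 8.31, 8.12 and 7.98 on those of VC+ day 2 (log2 fold change -1.97, standard error 0.44, adjusted p = 0.0146). Its brighter probe sets, with mean log2 signals of 12.51 and 12.94, gave smaller falls of -1.30 and -0.90. Ppp1r12b, a targeting subunit of myosin phosphatase, had 6.81, 6.75, 8.14 and 7.43 on the VC+ day 7 arrays, against 8.50, 8.79, 8.73, 9.23 and 8.65 on those of VC+ day 2 (log2 fold change -1.5, standard error 0.36, adjusted p = 0.0203). Hspb6, a small heat shock protein tied to relaxation, had 7.71, 8.05, 9.50 and 7.50 on the VC+ day 7 arrays, against 9.53, 9.23, 9.51, 9.86 and 9.72 on those of VC+ day 2 (log2 fold change -1.38, standard error 0.39, adjusted p = 0.0386), and only it overlapped, through replicate 3 of day 7. Of the calcium handling genes, Pln, phospholamban, which restrains the calcium pump of the sarcoplasmic reticulum, had 5.25, 5.23, 7.92 and 5.00 on the VC+ day 7 arrays, against 6.33, 8.84, 9.22, 9.12 and 8.74 on those of VC+ day 2 (log2 fold change -2.60, standard error 0.69, adjusted p = 0.0298). The groups overlapped through day 7 replicate 3 and day 2 replicate 1, which were far from the rest of their groups. Kcnmb1, the smooth muscle subunit of the large-conductance potassium channel, had a log2 fold change of -1.17 (adjusted p = 0.081), and Jph2 and Casq2, which organise and load the calcium store, had -0.38 and -0.64 (adjusted p = 0.195 and 0.29).

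Both intermediate filament genes fell in VC+ mice. Des, desmin, had 9.61, 10.22, 10.73 and 9.19 on the VC+ day 7 arrays, against 11.66, 11.34, 11.75, 11.40 and 11.48 on those of VC+ day 2 (log2 fold change -1.59, standard error 0.41, adjusted p = 0.0264). Synm, synemin, which links desmin to the membrane plaques, had 8.26, 8.52, 9.59 and 8.63 on the VC+ day 7 arrays, against 11.27, 9.60, 11.58, 11.72 and 11.40 on those of VC+ day 2 (log2 fold change -2.37, standard error 0.65, adjusted p = 0.0338), and replicate 2 of day 2 was almost level with replicate 3 of day 7. Of the membrane and plaque genes, Itga8, the integrin α8 subunit of smooth muscle, had 5.87, 4.41, 7.02 and 5.13 on the VC+ day 7 arrays, against 8.25, 7.51, 8.05, 8.36 and 8.50 on those of VC+ day 2 (log2 fold change -2.53, standard error 0.46, adjusted p = 0.00407). Dmd, dystrophin, had 5.64, 5.26, 6.53 and 5.52 on the VC+ day 7 arrays, against 6.31, 7.34, 6.80, 6.99 and 6.62 on those of VC+ day 2 (log2 fold change -1.08, standard error 0.29, adjusted p = 0.0305), with an overlap. The brighter probe set of Dmd, with a mean log2 signal of 9.61, gave a smaller fall of -0.69. The call of Dmd was lost when the probe set of highest mean was used. Vcl, Flna and Pgm5, which join actin to the membrane in many cell types or, for Pgm5, mainly in muscle, had log2 fold changes of -0.60, -0.68 and -0.78 and did not pass the test (adjusted p = 0.234, 0.165 and 0.245). Actn1, a crosslinker of actin in non-muscle cells as well, had a log2 fold change of 0.08 (adjusted p = 0.929).

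Among the genes of the Z-disc-like bodies and the LIM proteins, Synpo2, an actin-bundling partner of α-actinin, had 4.83, 4.93, 4.11 and 6.08 on the VC+ day 7 arrays, against 9.38, 6.95, 9.20, 9.51 and 9.11 on those of VC+ day 2 (log2 fold change -3.84, standard error 0.79, adjusted p = 0.00901). This was the most negative of the 34 log2 fold changes, and the groups did not overlap. Its size rested on the probe set: the brightest probe set of Synpo2, with a mean of 9.81, gave -1.53, the other 2 gave -2.25 and -1.29, and the call was lost when the probe set of highest mean was used. Pdlim3, a PDZ and LIM protein of muscle, had 9.60, 9.52, 11.46 and 9.24 on the VC+ day 7 arrays, against 11.40, 11.42, 11.86, 11.89 and 11.83 on those of VC+ day 2 (log2 fold change -1.72, standard error 0.41, adjusted p = 0.0187), and day 7 replicate 3 lay among the day 2 arrays. Fhl1, a LIM protein of muscle, was read from a probe set near the background, with 2.97, 3.02, 3.5 and 3.12 on the VC+ day 7 arrays, against 5.09, 3.5, 5.25, 4.05 and 4.53 on those of VC+ day 2 (log2 fold change -1.33, standard error 0.29, adjusted p = 0.012), with replicate 3 of day 7 level with replicate 2 of day 2, and its brighter probe set, with a mean log2 signal of 12.96, had a log2 fold change of -2.03. Smpx, a small protein of the muscle cytoskeleton, had 5.65, 6.25, 6.23 and 2.77 on the VC+ day 7 arrays, against 7.77, 7.42, 7.68, 8.61 and 8.87 on those of VC+ day 2 (log2 fold change -2.84, standard error 0.72, adjusted p = 0.024). Its value of 2.77, on replicate 4, lay near the background, so that the size of the fall depends on it. Ldb3 and Pdlim7, PDZ and LIM proteins, Nexn, an actin-binding protein, and Csrp1, a LIM protein of smooth muscle, had log2 fold changes of 0.42, -0.95, -0.52 and -1.12, none past the threshold (adjusted p = 0.765, 0.2, 0.295 and 0.208).

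The count of falls in VC+ mice moved with single arrays of day 7. It became 9 without replicate 1, 12 without replicate 2, 9 without replicate 4 and 14 if either replicate 4 or replicate 5 of VC+ day 2 was removed, and the fold changes of the 21 genes stayed negative whichever array was left out. Acta2, Actg2, Myh11, Myl9, Tpm1, Tpm2, Itga8, Fhl1 and Synpo2 stayed called in each of the 22 fits with a single array removed. Without the 3 VC+ arrays with Pparg above 9, of which 2 were of day 7, 1 gene was called (Fhl1), the median of the 34 log2 fold changes was -1.22, against -1.44 with all arrays, and 1.1% of all genes were called in either direction; this alternative was chosen after seeing the data. With a term for Hoxb13, which was above 9 on 4 of the 5 day 2 arrays and on none of the 4 day 7 arrays, 8 genes were called (Acta2, Actg2, Myh11, Tpm2, Mylk, Itga8, Dmd and Pln), beside 2.81% of all genes. The 13 genes that lost the call had a median log2 fold change of -1.52 with the term, against -1.65 without it, and all stayed below 0. Smtn had -2.04 with the term and Myl9 -1.57 (adjusted p = 0.0537), close to the values above, while Synpo2 had -2.32, against -3.84 without the term. Among arrays with Hoxb13 below 5, also chosen after seeing the data, day 2 kept 1 array and no gene of any kind was called, so that the members' count there says nothing about their stability. Hoxb13 and the day of DSS thus partly went together in VC+ mice, and the part of position along the colon in the falls was not tested beyond these settings.

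**Figure D3:**
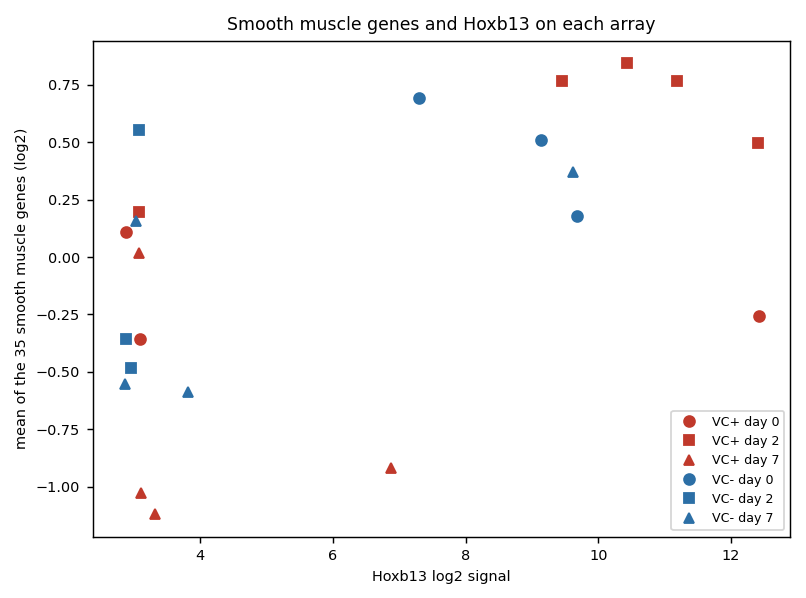
Mean of the 35 smooth muscle genes on each array (vertical, log2 relative to each gene's mean over all arrays) against the log2 signal of Hoxb13 (horizontal), by genotype (color) and day (shape). With Hoxb13 below 5, the means run from -1.12 to 0.55, and the VC+ arrays of day 2 with Hoxb13 above 9 lie between 0.50 and 0.84.

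**Figure D4:**
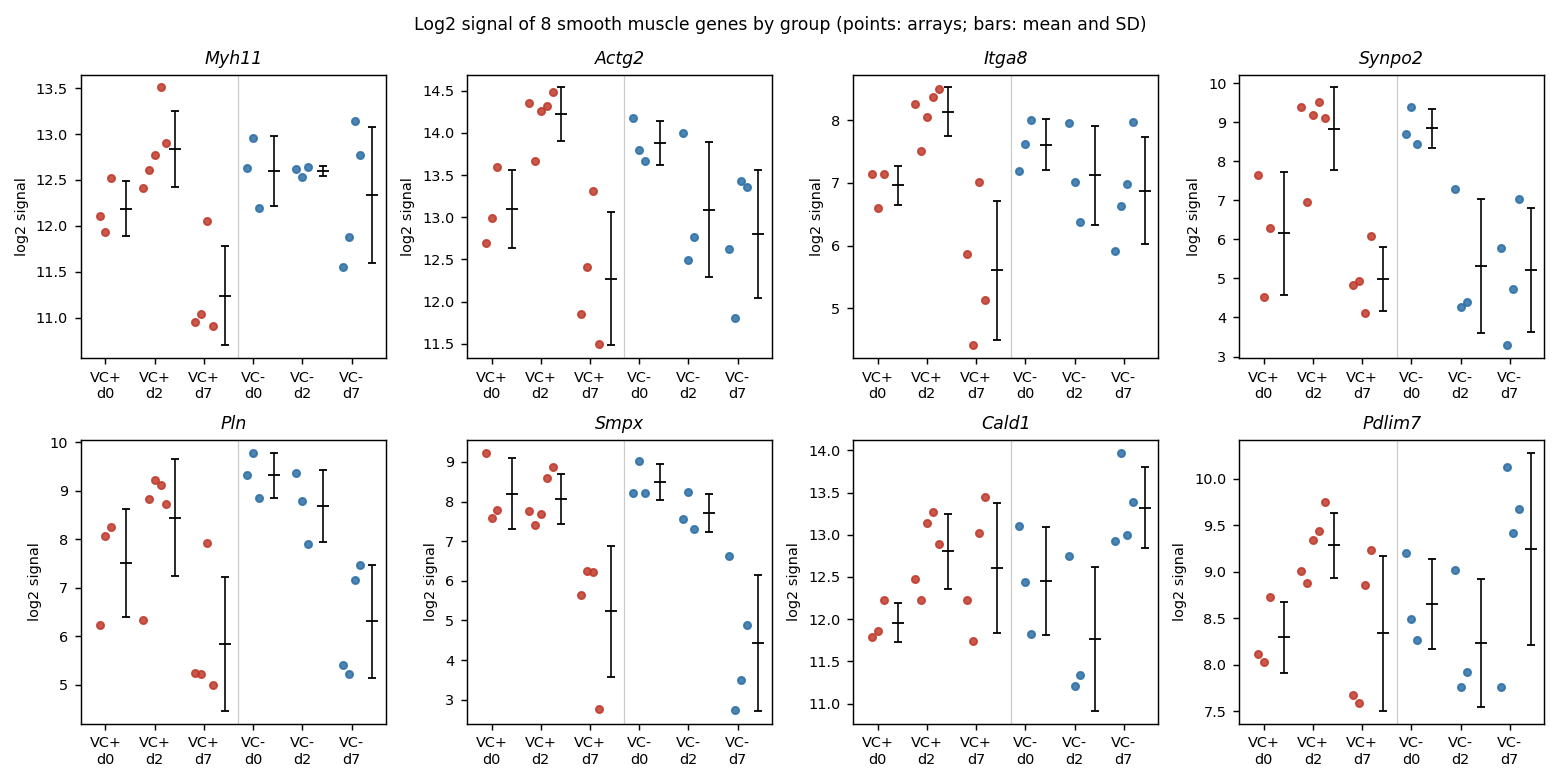
Log2 signal of 8 smooth muscle genes on each array (points), by genotype and day, with the mean and SD of the group beside them. Smpx is low at day 7 in both genotypes, and Cald1 at day 7 in VC- mice lies above every VC- array of day 2.

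Smpx, Synpo2 and Pln fell at day 7 against day 0 in VC- mice, 3 of 34 genes, where 5.06% of all genes tested fell and 10.6% were called in either direction. The median over the 35 genes was -0.54, against -0.04 over all genes, and 7 genes had no overlap in the lower direction, as did 12.3% of all genes tested. Smpx had 6.63, 2.73, 3.49 and 4.90 on the VC- day 7 arrays, against 8.23, 9.01 and 8.23 on those of VC- day 0 (log2 fold change -4.05, standard error 0.82, adjusted p = 0.00793). In both genotypes all 8 arrays of day 7 lay below 7 for Smpx and all 14 arrays of days 0 and 2 lay above 7. Synpo2 had 5.77, 3.28, 4.74 and 7.03 on the VC- day 7 arrays, against 8.71, 9.40 and 8.43 on those of VC- day 0 (log2 fold change -3.64, standard error 0.89, adjusted p = 0.0218), and Pln had 5.41, 5.23, 7.16 and 7.48 on the VC- day 7 arrays, against 9.32, 9.79 and 8.86 on those of VC- day 0 (log2 fold change -3.01, standard error 0.79, adjusted p = 0.0281). The brightest probe set of Synpo2 gave -0.63 and the other 2 gave -1.58 and -2.10, and with the probe set of highest mean for each gene Synpo2 and Pln both lost their calls. None of these 3 overlapped between the days. Smpx at 2.73 and 3.49 and Synpo2 at 3.28 lay near the background, so that the sizes of their differences depend on it. The fall of Smpx stayed called in each of the 22 fits with a single array removed (highest adjusted p = 0.0418), while Synpo2 lost its call for 3 arrays and Pln for 4. Removing replicate 2 or 3 of VC- day 0, or replicate 2 of VC- day 7, left 1 call, and removing VC- day 7 replicate 1 gave 5. Without the 3 arrays with Prss2 signal the count was 1, and with the other groups left out of the fit it was 0, where 0.033% of all genes were called.

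None of the 6 filament genes passed the test in VC- mice at day 7 against day 0 or day 2, and their values there fell into lower and higher arrays. Actg2 had 12.62, 11.81, 13.43 and 13.36 on the VC- day 7 arrays, against 14.17, 13.80 and 13.67 at day 0, a log2 fold change of -1.07 with no overlap (adjusted p = 0.108). Myh11 had 11.56, 11.88, 13.14 and 12.78, against 12.63, 12.96 and 12.20 (-0.26, adjusted p = 0.629). In Myh11 day 7 replicates 1 and 2 lay below every day 0 array and replicates 3 and 4 within or above the day 0 range. Against day 2, Smpx had 6.63, 2.73, 3.49 and 4.90 on the VC- day 7 arrays, against 7.57, 8.25 and 7.32 on those of VC- day 2 (log2 fold change -3.28, standard error 0.82, adjusted p = 0.0317), where 2.15% of all genes fell. The values of 2.73 and 3.49 near the background enter here as well. Cald1 had 12.92, 13.97, 13.00 and 13.39 on the VC- day 7 arrays, against 12.75, 11.21 and 11.34 on those of VC- day 2 (log2 fold change 1.55, standard error 0.43, adjusted p = 0.0446), the one smooth muscle gene that rose in any comparison, where 3.45% of all genes rose. Leaving out single arrays ended the call of Cald1 in 15 of 22 cases and that of Smpx in 5, and both were lost when replicate 2 or 3 of VC- day 2 or replicate 2 or 4 of VC- day 7 was removed, while 4 genes were called if replicate 1 of either group was removed.

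VC- day 7 replicate 2 combined low and high smooth muscle genes on a single array. It held the highest value of 5 genes and the lowest of 5 others among all 22 arrays. Cald1 (13.97), Pgm5 (10.60), Csrp1 (12.31) and Pdlim7 (10.13) were at their highest there, while Ldb3 (3.71), Lmod1 (5.51), Smpx (2.73) and Synpo2 (3.28) were at their lowest. On the same array the mean of the epithelial markers was -2.52 relative to all arrays, that of the fibroblast markers 2.27, of endothelium 3.06, of pericytes and vessel wall 2.74 and of enteric neurons 1.78, and Prss2 was 14.74. VC+ day 7 replicate 4 had part of this pattern, with Actg2 (11.50), Myh11 (10.91), Des (9.19) and Pdlim3 (9.24) at their lowest of all VC+ arrays beside the highest VC+ value of Cald1 (13.45), and with fibroblast, endothelial and vessel wall means of 0.84, 1.22 and 1.30 and a Prss2 signal of 11.20. The part of other cell types in these values was not tested.

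At day 2 most of the genes had means above day 0 in VC+ mice and below it in VC- mice, and none passed the test in either genotype. In VC+ mice 33 of the 35 log2 fold changes were above 0, with a median of 0.83 against 0.00 over all genes, and in VC- mice 29 were below 0, with a median of -0.49 against 0.01. By limma 0 of 34 were called in each (0.055% and 0.011% of all genes), with 12 at an unadjusted p under 0.05 in VC+ mice, all higher (as for 2.51% of all genes), and 4 in VC- mice, all lower (2.48%). For 12 genes every VC+ array of day 2 was above every VC+ array of day 0, as for 4.17% of all genes tested, and for 3 genes every VC- array of day 2 was below every VC- array of day 0, as for 6.61%. Kcnmb1 had 5.35, 4.99, 5.81, 5.55 and 6.04 on the VC+ day 2 arrays, against 3.73, 3.85 and 4.30 on those of VC+ day 0 (log2 fold change 1.59, standard error 0.44, adjusted p = 0.368), and 5.35, 4.28 and 3.68 on the VC- day 2 arrays, against 6.16, 5.52 and 5.90 on those of VC- day 0 (-1.42, standard error 0.49, adjusted p = 0.923). It was the one gene with no overlap in opposite directions. The VC+ day 0 values of 3.73 and 3.85 and the VC- day 2 value of 3.68 lay not far above the background. Synpo2 had 9.38, 6.95, 9.20, 9.51 and 9.11 on the VC+ day 2 arrays, against 7.65, 4.52 and 6.28 on those of VC+ day 0 (2.68), and 7.29, 4.27 and 4.38 on the VC- day 2 arrays, against 8.71, 9.40 and 8.43 on those of VC- day 0 (-3.54), with adjusted p = 0.499 and 0.885. The other probe sets of Synpo2 gave 2.67 and 1.23 in VC+ mice and the brightest, with a mean of 9.81, gave 0.06. In VC- mice the brightest had 10.14, 11.16 and 11.03 at day 2, against 10.34, 10.40 and 9.97 at day 0, and did not fall. The others were lower on every VC- array of day 2 than on any of day 0.

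The difference between the day 2 responses of VC+ and VC- mice passed the test for none of the 34 genes (0.022% of all genes were called), with 16 at an unadjusted p under 0.05, all more positive in VC+ mice, as for 3.29% of all genes. It was 6.21 for Synpo2 (adjusted p = 0.206), 3.01 for Kcnmb1 (adjusted p = 0.206) and 2.00 for Fhl1 (adjusted p = 0.256), and the median over the 35 genes was 1.31. The value for Synpo2 rested on the probe set used. Its brightest probe set changed by 0.06 at day 2 in VC+ mice and had a higher mean at day 2 than at day 0 in VC- mice. In VC- mice Hoxb13 lay below 4 at day 2 and above 7 at day 0, and in VC+ mice it was above 9 on 4 of 5 day 2 arrays and 1 of 3 day 0 arrays, so that Hoxb13 moved with both responses and in opposite directions. With array quality weights 20 genes rose at day 2 in VC+ mice and 10 had a more positive response in VC+ mice, where 14.1% and 3.74% of all genes were called. At day 7 the responses of the genotypes against day 0 differed by a median of -0.11, with 0 of 34 genes called by limma (0% of all genes) and 0 at an unadjusted p under 0.05 (8.48% of all genes).

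Before DSS every one of the 35 genes had a lower mean on the VC+ arrays than on the VC- arrays, with a median log2 difference, VC+ minus VC-, of -0.53 against -0.01 over all genes. None passed the test (0 of 34 by limma, 0.011% of all genes). At an unadjusted p under 0.05 there were 5, all lower in VC+ mice, where 2.8% of all genes were lower and 6.6% passed in either direction. For 15 genes all VC+ arrays were below all VC- arrays, as for 10.6% of all genes tested in that direction. Kcnmb1 differed by -1.90 (standard error 0.49, adjusted p = 0.4), with the values given above. Pln had 6.24, 8.06 and 8.26 on the VC+ day 0 arrays, against 9.32, 9.79 and 8.86 on those of VC- day 0 (-1.80, adjusted p = 0.748), and Actg2 had 12.70, 13.00 and 13.60 on the VC+ day 0 arrays, against 14.17, 13.80 and 13.67 on those of VC- day 0 (-0.78, adjusted p = 0.833). At day 2 the order was the opposite, with 31 of 35 differences above 0, a median of 0.70 and 15 genes at an unadjusted p under 0.05, all higher in VC+ mice (6.69% of all genes), and again 0 called (0.044% of all genes). Synm had 11.27, 9.60, 11.58, 11.72 and 11.40 on the VC+ day 2 arrays, against 11.17, 7.02 and 7.94 on those of VC- day 2 (2.41, standard error 0.71, adjusted p = 0.242), and Des had 11.66, 11.34, 11.75, 11.40 and 11.48 on the VC+ day 2 arrays, against 11.33, 9.43 and 9.61 on those of VC- day 2 (1.40, adjusted p = 0.264). VC- day 2 replicate 1 lay near the VC+ arrays in both genes, and without it 7 genes were called, beside 2.75% of all genes.

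At day 7 the differences between VC+ and VC- mice were below 0 for 32 of 35 genes, with a median of -0.73, and none was called (0 of all 9097 genes tested, by limma), with 13 at an unadjusted p under 0.05, all lower in VC+ mice, as for 6.33% of all genes. Myh11 had 10.95, 11.04, 12.05 and 10.91 on the VC+ day 7 arrays, against 11.56, 11.88, 13.14 and 12.78 on those of VC- day 7 (-1.10, standard error 0.33, adjusted p = 0.303), and Acta2 had 5.67, 4.91, 7.79 and 5.47 on the VC+ day 7 arrays, against 6.70, 7.96, 7.66 and 7.44 on those of VC- day 7 (-1.48, standard error 0.47, adjusted p = 0.303). VC+ replicate 3 lay within the VC- range in both. Removing VC+ replicate 3 gave 3 calls (0.813% of all genes were called) and removing VC- replicate 1 gave 11 (13.3%), against 22 with array quality weights, where 17.5% of all genes were called. Against day 0, the VC+ arrays of day 7 had a median of -0.70, with 28 of 35 below 0, 0 called by limma (1.75% of all genes were) and 10 at an unadjusted p under 0.05, all lower (6.53% of all genes). Smpx came nearest to the threshold, with 5.65, 6.25, 6.23 and 2.77 on the VC+ day 7 arrays, against 9.23, 7.59 and 7.78 on those of VC+ day 0 (log2 fold change -2.97, standard error 0.82, adjusted p = 0.0813). The value of 2.77 lay near the background here too. Comparisons with day 0, with day 2 and between genotypes share arrays and are not independent of each other.

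None of the tested genes that control the transcription of the contractile genes, of the receptors that act on smooth muscle or of its calcium entry was called by limma at day 7 against day 2 in VC+ mice, where 7.58% of all genes were, and a count of 0 among so few genes lies near that share. At an unadjusted p under 0.05 there were 2 of 10 genes of transcriptional control, none of 8 of receptors and signaling and 1 of 8 of calcium entry and stores, all lower, where 10.2% of all genes were lower at that level. Myocd, myocardin, had 7.01, 7.11, 7.92 and 8.16 on the VC+ day 7 arrays, against 7.65, 6.93, 7.72, 8.41 and 7.63 on those of VC+ day 2 (log2 fold change -0.12, adjusted p = 0.869). Srf, serum response factor, had 7.08, 7.04, 8.40 and 7.40 on the VC+ day 7 arrays, against 8.0, 7.71, 8.16, 8.47 and 8.11 on those of VC+ day 2 (log2 fold change -0.61, adjusted p = 0.254). Mrtfa, a myocardin-related coactivator that many cells make, rose in VC- mice against day 0, with 7.28, 8.07, 7.82 and 7.64 on the VC- day 7 arrays, against 6.86, 6.57 and 6.53 on those of VC- day 0 (log2 fold change 1.05, standard error 0.24, adjusted p = 0.0164). The muscarinic receptor gene Chrm3 stayed between 2.34 and 2.88 on all arrays.

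Genes of the synthetic state of smooth muscle, most of which fibroblasts and other cells also make, rose in part at day 7. Of 9 tested, Timp1, Vcan, Thbs1 and Mgp rose against day 0 in VC- mice (5.53% of all genes rose), and Timp1 alone rose in VC+ mice (1.32%). Timp1, an inhibitor of metalloproteinases, had 6.87, 6.34, 7.43 and 9.02 on the VC+ day 7 arrays, against 2.78, 2.81 and 2.79 on those of VC+ day 0 (log2 fold change 4.62, standard error 0.65, adjusted p = 0.000821), and 6.44, 9.55, 7.11 and 8.23 on the VC- day 7 arrays, against 3.07, 3.57 and 4.10 on those of VC- day 0 (log2 fold change 4.25, standard error 0.65, adjusted p = 0.00107). Its VC+ day 0 signals lay where probe sets with little or no transcript lie, so that the fitted difference depends on that background and is not a fold of transcript. Vcan, the matrix proteoglycan versican, had 7.34, 10.87, 8.47 and 8.86 on the VC- day 7 arrays, against 5.15, 6.76 and 6.44 on those of VC- day 0 (log2 fold change 2.77, standard error 0.62, adjusted p = 0.014). The mean of the synthetic list was highest on VC- day 7 replicate 2 (2.60), VC- day 7 replicate 4 (1.76) and VC+ day 7 replicate 4 (1.62), and on VC+ day 7 replicates 1 and 2, where the contractile genes were low, it was -0.24 and -0.38. Arrays with low contractile genes thus included both low and high values of the synthetic list.

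Interstitial cells of Cajal, the pacemaker cells of the muscle wall, are marked by Kit and Ano1. Both fell with the contractile genes in VC+ mice at day 7 against day 2, where 2.83% of all genes tested fell. Kit, which mast cells also carry, had 5.47, 5.84, 6.04 and 5.86 on the VC+ day 7 arrays, against 7.12, 6.41, 6.86, 6.68 and 7.28 on those of VC+ day 2 (log2 fold change -1.07, standard error 0.28, adjusted p = 0.029). Ano1, the chloride channel of these cells, which some epithelia also make, had 5.77, 6.09, 6.74 and 6.37 on the VC+ day 7 arrays, against 8.32, 7.00, 8.01, 8.02 and 8.66 on those of VC+ day 2 (log2 fold change -1.76, standard error 0.36, adjusted p = 0.00928), with no overlap in either gene. Gucy1a1, the other measured gene of the list, had a log2 fold change of -0.25 (adjusted p = 0.688). Ano1 also fell in VC- mice, with 6.94, 6.63, 5.81 and 6.46 on the VC- day 7 arrays, against 7.73, 7.86 and 7.89 on those of VC- day 0 (log2 fold change -1.37, standard error 0.42, adjusted p = 0.0429), where 5.06% of all genes tested fell.

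Markers of other cells of the wall moved with part of the contractile genes on the VC+ arrays of day 7. Relative to all arrays, the mean of the enteric neuron list was -0.88, -1.17, 0.13 and 0.28 on VC+ day 7 replicates 1 to 4, against -0.25, -0.08, -0.04, 0.50 and 0.20 on the 5 VC+ arrays of day 2, and that of the fibroblast list was -0.78, -0.70, 0.39 and 0.84, against -0.45, 0.09, 0.24, 0.62 and 0.73. The epithelial list had -0.08, 0.10, 0.03 and -0.38, against 0.36, 0.44, 0.52, 0.05 and 0.13, and the macrophage list 0.50, 0.38, 0.77 and 1.88, against 0.13, -0.15, 0.09, -0.55 and -0.13. Replicates 1 and 2 were low for neurons and fibroblasts as well as for smooth muscle, and replicate 4 was low for smooth muscle only of these 3 lists. Of 8 tested neuron genes, 7 fibroblast genes, 5 vessel wall genes and 9 epithelial genes none was called by limma in this comparison (3, 1, 1 and 1 at an unadjusted p under 0.05, where 7.58% of all genes were called and 23.1% had such a p), 1 of 6 macrophage genes and both tested neutrophil genes rose, and the part of these cells in the falls was not tested. In VC- mice at day 7 against day 0, 4 of 5 tested genes of pericytes and the vessel wall rose, where 5.53% of all genes tested did. By limma, Notch3 rose by 1.5, Pdgfrb by 2.42, Kcnj8 by 2.85 and Abcc9 by 2.50 on the log2 scale (adjusted p = 0.0443, 0.0175, 0.0256 and 0.0457). The mean of this list ran from -0.29 to 2.74 on the VC- day 7 arrays, with the highest on replicate 2.

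**Figure D5:**
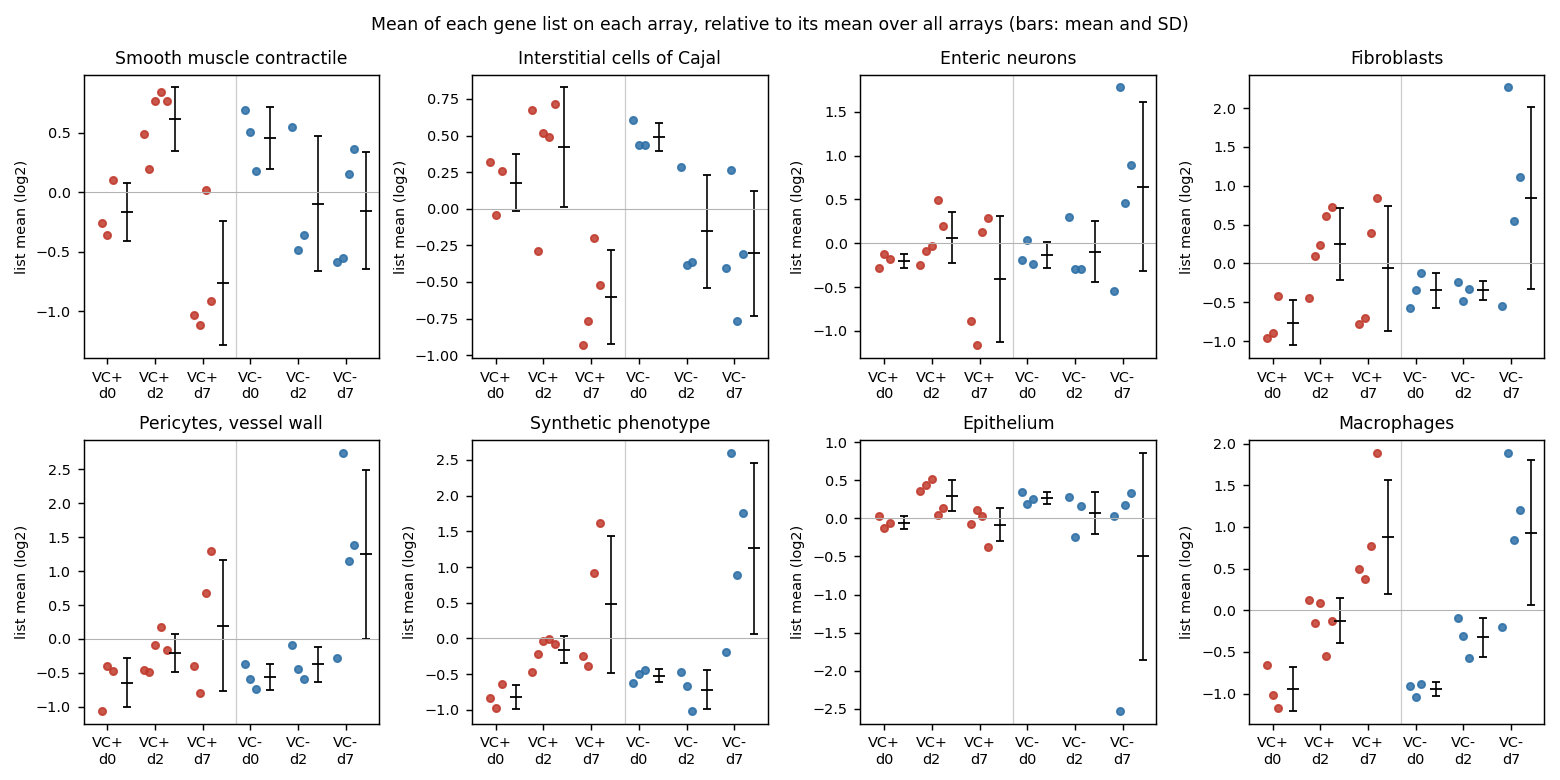
Mean of 8 gene lists on each array (points), relative to each gene's mean over all arrays (log2), by genotype and day, with the mean and SD of the group. On the VC+ arrays of day 7 the smooth muscle list lies at -1.12 to 0.02 and the synthetic list at -0.38 to 1.62, and VC- day 7 replicate 2 is the low point of the epithelial list (-2.52).

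The members differed in how closely each followed the mean of the other members over the 22 arrays, a description in which the arrays fall into groups. Pearson's r was highest for Tpm2 (0.969), Tpm1 (0.957), Tagln (0.951) and Cnn1 (0.950), and it was 0.852 for Myh11 and 0.871 for Acta2. It was lowest for Ldb3 (-0.03), Actn1 (0.098), Cald1 (0.268), Sgca (0.291) and Smpx (0.418). Ldb3 held near 8 on most arrays, with 3.71 on VC- day 7 replicate 2. Of 8977 genes on no list, the 10 most like the member mean were Il17d (r = 0.911, Spearman's rho 0.910), Wscd2 (0.908 and 0.878), Lims2 (0.906 and 0.922), Cryab (0.901 and 0.875), Wfdc1 (0.894 and 0.874), Ptprz1 (0.893 and 0.910), Bag2 (0.882 and 0.893), Ptn (0.875 and 0.885), Rab23 (0.867 and 0.857) and Aspn (0.867 and 0.897). Without the 2 arrays farthest from the median of the member mean these r values were 0.805 (Aspn) to 0.870 (Il17d and Bag2). No p-value is attached, since these genes were picked for their likeness.

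Where a gene had several probe sets they mostly told the same direction in VC+ mice. The 35 genes had 75 probe sets in all, and 21 genes had more than 1. Beside the ones used, 21 probe sets of 14 genes had a mean log2 signal above 4, and 20 of these had a log2 fold change below 0 at day 7 against day 2 in VC+ mice. The exception was a probe set of Actn1 (0.23). Acta2 was read from a probe set with a mean of 7.33, and its brighter probe set, with a mean of 14.25, had a log2 fold change of -0.88 against -2.31. The other probe sets of Pln gave -3.07 and -2.20, against -2.60. In VC- mice at day 7 against day 0, 13 of the 21 were below 0.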

How the data were processed

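Total RNA of homogenized colon was hybridised to Affymetrix mouse arrays, and the authors normalized the scanned arrays with GC-RMA in R 2.10.1, so that the deposited values are log2 signals per probe set, with array medians of 3.41 to 3.55. No depth applies to arrays, and the precision rests on 3 to 5 arrays a group. From these values each gene was read from its probe set with the largest interquartile range (34958 of 45101 probe sets carried 1 gene symbol, 932 several and 9211 none in the annotation used here), the genes above the median of that range among 18194 were tested (the study also filtered on low variance, and the median was chosen here), and 6 group means were fitted in 1 model with limma 3.58.1 in R 4.3.3, with Benjamini-Hochberg adjustment over 9097 genes in each of 11 comparisons and a threshold of 0.05. The fit was tested on simulated data. Fold changes are differences of log2 signal. All members were named, with every array's value for those past the threshold or with a large spread, and of other lists up to 4 genes past the threshold, defining markers and the 10 genes most like the member mean. The members and lists were chosen with earlier results of these data known. The alternatives were another probe set rule, filters, normalizations, array weights, the replicate block, Hoxb13 and Xist as terms, and leaving out arrays.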

Additional observations from a re-analysis of the deposited data

Results flagged for a closer look

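In 18 of 105 combinations of a gene and a group of 4 or 5 arrays, 1 array stood far from the others of its group (Dixon's criterion, which chance meets in about 1 of 20 groups, and the genes of an array are not independent). VC+ day 2 replicate 2 was the low one for 7 genes: Actg2 (log2 signal 13.67), Tagln (13.34), Cnn1 (12.30), Synm (9.60), Pgm5 (8.96), Synpo2 (6.95) and Csrp1 (9.80). This is the VC+ array of day 2 with a low Hoxb13 signal (3.07) and a high Pparg signal (9.54). VC+ day 7 replicate 3 was the high one for 6 genes, Myh11 (12.05), Myl9 (13.38), Tpm2 (14.14), Pln (7.92), Jph2 (4.70) and Pdlim3 (11.46). VC- day 7 replicate 1 was the low one for Ppp1r12b (7.12) and Flna (11.43). Single cases were Pln on VC+ day 2 replicate 1 (6.33), Vcl on VC+ day 7 replicate 2 (4.43) and Sgca, at background, on VC+ day 7 replicate 4 (2.29).

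Kcnmb1 was higher on every VC+ array of day 2 than on any of day 0, and lower on every VC- array of day 2 than on any of day 0. The difference between these responses was 3.01 on the log2 scale, and it did not pass limma's interaction test (adjusted p = 0.206). Its size depends on values not far above the background, such as 3.73 on a VC+ day 0 array and 3.68 on a VC- day 2 array. The other probe set of Kcnmb1, with a mean of 2.76, lay at background and overlapped between these days in VC- mice.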

How the results depend on the processing

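The falls of smooth muscle genes at day 7 against day 2 in VC+ mice (21 with all arrays) numbered 9 to 22 over the fits that left out 1 array, 15 to 21 under the other probe set rule, filters, normalizations, the Xist term, without the arrays with Prss2 signal and with only the groups compared, 30 with array quality weights and 8 with Hoxb13 as a term. They numbered 0 among arrays with Hoxb13 below 5, where VC+ day 2 kept 1 array and no gene of any kind was called, and 1 without the VC+ arrays with Pparg above 9, both chosen after seeing the data. The 3 calls at day 7 against day 0 in VC- mice became 1 to 5 with 1 array left out, 1 with the probe set of highest mean, 1 without the arrays with Prss2 signal and 0 with only the groups compared. The 2 calls at day 7 against day 2 in VC- mice became 0 to 4 with 1 array left out, 1 with the probe set of highest mean, 1 with the Hoxb13 term, 1 without the Prss2 arrays, and 0 with the Xist term, with only the groups compared and with Hoxb13 below 5. Array quality weights gave 20 calls in VC+ mice at day 2 against day 0 (1 with only the groups compared), 15 in VC+ mice at day 7 against day 0, 5 for VC+ against VC- mice at day 0, 22 at day 7 and 10 for the difference between the day 2 responses, all of which had 0. With 1 array left out these were 0 to 0, 0 to 3, 0 to 0, 0 to 11 and 0 to 3, and VC+ against VC- mice at day 2 had 0 to 7. The causes were not tested.

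The main fit did not treat arrays of the same replicate number as paired, and whether they were was not tested. Of pairs of arrays in different groups, 18 of 48 with the same number deviated together with a correlation over 0.1 (mean 0.0842). Among pairs with other numbers it was 36 of 152, a smaller share (mean -0.0267). With the replicate block, 17 genes were called in VC+ mice and 0 in VC- mice at day 7 against day 2, and 3 in VC- mice at day 7 against day 0. No direction of a called gene reversed under any alternative run, and of its fold changes under an alternative 726 still passed the test and 181 did not. For each call, 22 alternatives left out 1 array, mostly of a group not compared, and 12 or 13 were other settings. The pooled count thus mostly reflects leaving out 1 array.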
